A study of Mus musculus with 6 samples.

Results

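The enzymes described here are the xenobiotic-metabolizing cytochromes P450 (Cyp genes), UDP-glucuronosyltransferases (Ugt genes) and cytosolic sulfotransferases (Sult genes) of cultured mouse gastric corpus epithelium. Members were taken by gene symbol, as every mouse gene named Cyp, Ugt or Sult followed by a digit, without the sterol-synthesis enzyme Cyp51. Symbols ending in -ps, which mark pseudogenes, were to be left out, and 0 members carried such a name. This gave 142 of the 25528 genes counted, namely 99 Cyp, 22 Ugt and 21 Sult genes. They were followed in 3 libraries of organoids with Erbb2 overexpression (Erbb2_OE_Corpus) and in 3 libraries of organoids transduced with an empty vector (Ctrl_Corpus). All 6 came from stomach corpus epithelium grown as 3D organoid cultures, and polyadenylated RNA was sequenced. Erbb2 (HER2) is a growth factor receptor with tyrosine kinase activity. Not given in the labels are the strain, the animals' age, the promoter that drove Erbb2 and the number of independent organoid lines. Nothing in them ties a library to its own culture or animal, so that p-values measure only the spread between these libraries, which may be technical.

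Cells clear lipophilic foreign compounds and many hormones in stages. P450 enzymes, fed with electrons by P450 oxidoreductase, insert an oxygen atom, UGT enzymes then attach glucuronic acid from UDP-glucuronate, and SULT enzymes attach sulfate from the donor PAPS. Conjugates leave the cell through transporters of the ABC family. Receptors such as the aryl hydrocarbon receptor (AHR), the pregnane X receptor (PXR, Nr1i2) and the constitutive androstane receptor (CAR, Nr1i3) sense the compounds and switch on many of the enzyme genes. The liver holds most of this capacity in the body, and the lining of the gut carries its own set of enzymes where food is absorbed. Several branches act on the body's own molecules, among them retinoic acid, steroid hormones, vitamin D, bile acids and fatty acids.

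Total counts lay between 18735853 and 22767455 per library. Levels are given as CPM, the count of a gene when each library is scaled to 1000000 counts after trimmed mean of M values (TMM) normalization. Erbb2 stood at 342, 349 and 285 CPM in Erbb2_OE_Corpus libraries 1, 2 and 3, against 125, 164 and 128 CPM in Ctrl_Corpus libraries 1, 2 and 3. The overexpressed gene was thus higher in each library labelled for it than in each control. Even so, Erbb2 did not pass the threshold in the edgeR fit without the replicate block described below (adjusted p = 0.64). With the block it did (log2 fold change 1.23, adjusted p = 3.55e-05, edgeR). The first principal component held 57.8% of the variance and parted both replicate 3 libraries from the other 4. Along it each Erbb2_OE_Corpus library also lay above the control of the same number. The scores of replicates 1, 2 and 3 were 1.712, -20.56 and 50.13 in Erbb2_OE_Corpus and -19.98, -50.14 and 38.83 in Ctrl_Corpus. Of 15 corpus epithelium markers 14 reached 1 CPM in 3 libraries, and their summed level was 13400 to 14900 CPM in Erbb2_OE_Corpus and 12700 to 15400 CPM in Ctrl_Corpus. Muc1 held the largest part (4030 to 5750 CPM in Erbb2_OE_Corpus, 4800 to 7630 CPM in Ctrl_Corpus), and single markers moved within this sum. Tff1 (85 to 187 against 28.6 to 73.9 CPM) and Psca (121 to 171 against 63.4 to 79.9 CPM) were higher in every Erbb2_OE_Corpus library than in any control. Muc1 and Sox2 were lower than in the control of the same number. Summed hepatocyte markers (8 genes) came to 0.832 to 5.55 CPM in Erbb2_OE_Corpus and 1.2 to 5.69 CPM in Ctrl_Corpus, and Serpina1a, Fgb and Tat had no read in any library. Summed markers of squamous forestomach (7 genes) were 649 to 918 CPM in Erbb2_OE_Corpus and 399 to 558 CPM in Ctrl_Corpus, of which Sprr1a held 399 to 614 CPM in Erbb2_OE_Corpus and 197 to 302 CPM in Ctrl_Corpus. Krt4 stood at 219 to 284 CPM in Erbb2_OE_Corpus and 193 to 253 CPM in Ctrl_Corpus. Ivl stood at 29.8 to 38.5 CPM in Erbb2_OE_Corpus and 8.17 to 24.2 CPM in Ctrl_Corpus. Krt13 did not pass 3.16 CPM in any library. Trp63 and Krt5, which define squamous basal cells, did not pass 0.374 CPM in any library, and neither did Krt14. Summed intestinal markers (8 genes) were 815 to 1420 CPM in Erbb2_OE_Corpus and 845 to 1470 CPM in Ctrl_Corpus, most of it from Lgals4 (589 to 1270 CPM in Erbb2_OE_Corpus and 633 to 1380 CPM in Ctrl_Corpus). Vil1 stood at 150 to 221 CPM in Erbb2_OE_Corpus and 90.5 to 210 CPM in Ctrl_Corpus. Cdx2 stood at 3.18, 2.43 and 5.16 CPM in Erbb2_OE_Corpus libraries 1, 2 and 3 and at 0.278, 0.282 and 2.37 CPM in Ctrl_Corpus libraries 1, 2 and 3. Fabp2 and Apoa4 did not pass 0.208 CPM, and Cdx1, Alpi and Sis had no read. Summed fibroblast markers (7 genes) were 60.7 to 97.4 CPM in Erbb2_OE_Corpus and 55.5 to 95.9 CPM in Ctrl_Corpus, mostly from Fbln1, while Col1a2, Dcn and Lum had no read. Summed immune markers (7 genes) were 18.6 to 73.4 CPM in Erbb2_OE_Corpus and 20.3 to 53.8 CPM in Ctrl_Corpus, mostly from Cd68, while Adgre1 had no read. Summed endothelial markers (6 genes) were 2.32 to 14.3 CPM in Erbb2_OE_Corpus and 2.53 to 5.89 CPM in Ctrl_Corpus, and Emcn had no read. With the replicate block described below, 3.09% of all tested genes passed the threshold in either direction. Beside this, 4 of 15 corpus, 1 of 8 intestinal and 2 of 7 squamous markers passed, and 0 of the hepatocyte, fibroblast, immune and endothelial markers did. The part of these markers in the results that follow was not tested. In bulk RNA, fewer cells of a type and less RNA per cell cannot be told apart.

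A member was called detected at 1 CPM or more in at least 3 libraries. This held for 39 of 142 members, namely 21 of 99 Cyp, 12 of 22 Ugt and 6 of 21 Sult genes. Of the 12 Ugt genes 9 are Ugt1a genes, detected mostly through exons that they share, as described below. A further 74 members had no read in any of the 6 libraries, 53 of them Cyp, 7 Ugt and 14 Sult. A count of 0 allows up to 3 reads, or 0.125 to 0.17 CPM depending on the library. The silent members included the main drug- and alcohol-oxidizing P450s of mouse liver Cyp1a2 and Cyp2e1, the bile acid enzymes Cyp7a1 and Cyp8b1, the fatty acid hydroxylases Cyp4a10 and Cyp4a14, the adrenal and gonadal enzymes Cyp11b1, Cyp11b2 and Cyp17a1, the estrogen sulfotransferase Sult1e1, and all 8 Sult2a genes.  In the differential test 44 members were retained, that is all 39 detected ones and Cyp2c55, Cyp2d10, Cyp2r1, Cyp4f40 and Cyp4x1. Of the 98 members not tested, 24 had reads, and the highest single value among them was 1.01 CPM, for Cyp4b1.

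**Figure D1:**
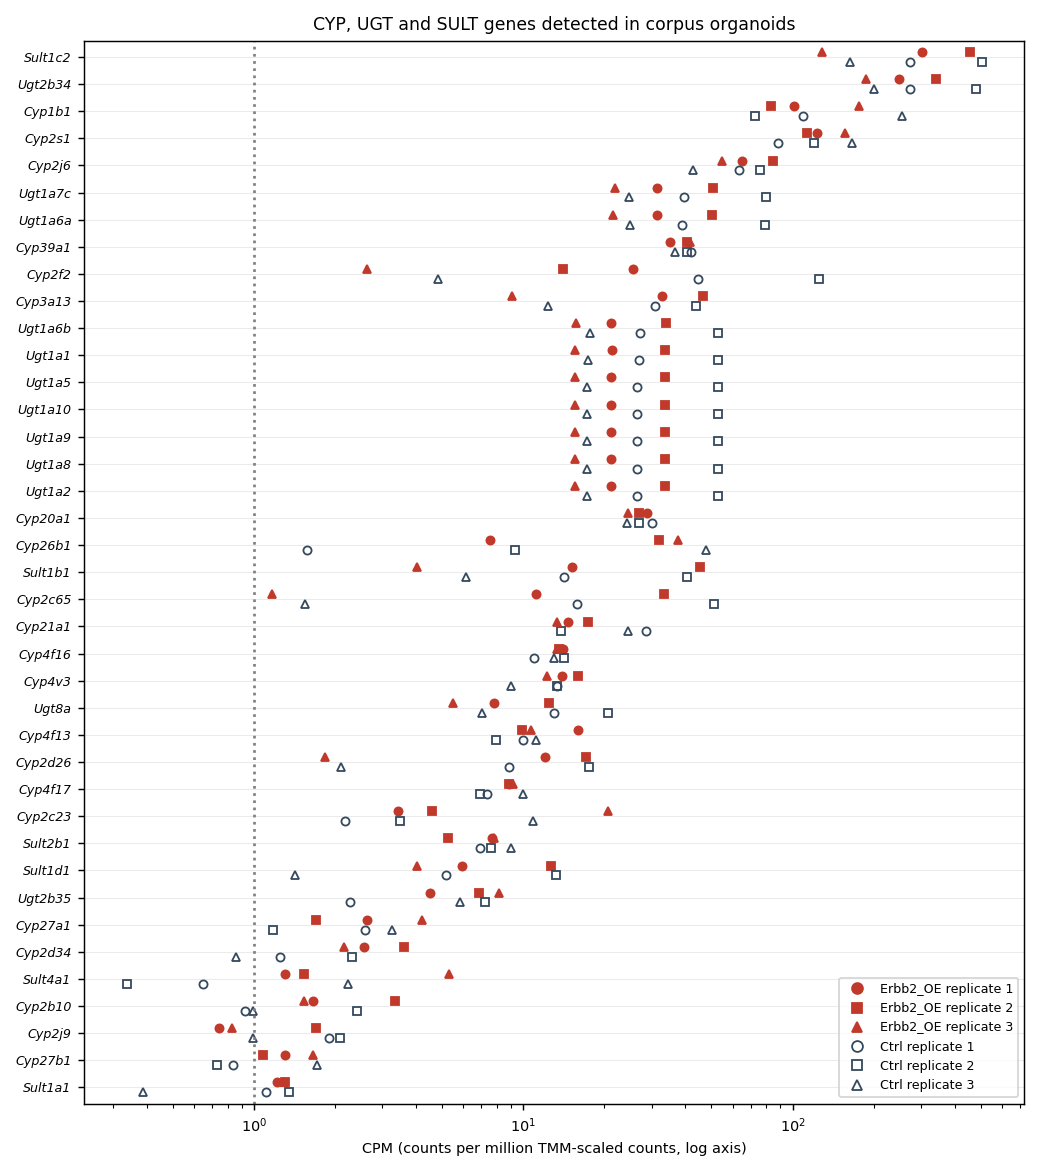
The 39 detected members by level, in CPM on a log axis, with 1 point per library; filled red points are Erbb2_OE_Corpus, open blue points Ctrl_Corpus, the marker shape gives the replicate number and the dotted line marks 1 CPM. Sult1c2 and Ugt2b34 sit at the top, and Cyp2f2, Cyp2c65 and Cyp26b1 spread over 30.3-fold or more between libraries while the colours overlap in every row.

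Among the detected members, levels per kilobase of exon were led by a sulfotransferase and a glucuronosyltransferase. Sult1c2, a sulfotransferase of the SULT1 family, averaged 160 CPM per kilobase in Erbb2_OE_Corpus and 170 CPM per kilobase in Ctrl_Corpus. Ugt2b34, of the UGT2B family, followed with 60.0 CPM per kilobase in Erbb2_OE_Corpus and 73.7 in Ctrl_Corpus. By the mean over all 6 libraries, the leading P450s on this per-length scale were Cyp2s1 and Cyp1b1. Cyp2s1 stood at 26.5 CPM per kilobase in Erbb2_OE_Corpus and 25.3 in Ctrl_Corpus, and Cyp1b1 at 20.6 in Erbb2_OE_Corpus and 24.9 in Ctrl_Corpus. By the mean of Ctrl_Corpus alone Cyp2f2 was the highest P450, at 28.8 CPM per kilobase against 6.94 in Erbb2_OE_Corpus. That mean came from 44.6, 125 and 4.82 CPM in Ctrl_Corpus libraries 1, 2 and 3, so the rank did not hold in each library. The difference between the groups did not pass the threshold (adjusted p 0.9997 without and 0.438 with the replicate block, edgeR). At the low end, Cyp2j9 stood at 0.327 CPM per kilobase in Erbb2_OE_Corpus and 0.497 in Ctrl_Corpus. The electron donor Por, shared by all microsomal P450s, was present at 729, 797 and 528 CPM in Erbb2_OE_Corpus libraries 1, 2 and 3 and at 661, 787 and 617 CPM in Ctrl_Corpus libraries 1, 2 and 3.

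Erbb2 overexpression was compared with the empty vector first without and then with the replicate number as a block. In the fit without the block, 0 of 44 tested members passed an adjusted p of 0.05 (edgeR's quasi-likelihood test, Benjamini-Hochberg over all 12593 tested genes), where 0.0% of all tested genes did. At an unadjusted p under 0.05 this fit also held 0 members, beside 3.33% of all tested genes, and the adjusted p was 0.9997 for each of the 44. DESeq2 and limma voom without the block called 0 members each, beside 0.275% and 0.0% of the genes they tested. With the block, which the pairing check allowed, the fit called 3.09% of all tested genes, 2.37% higher and 0.723% lower, and again 0 of 44 members. The smallest adjusted p of a member with the block was 0.0542, for Ugt8a. At an unadjusted p under 0.05 the block fit held 15 members, of which 9 are Ugt1a genes with nearly the same counts, beside 16.9% of all tested genes. With the Ugt1a locus counted as 1 gene this was 7 of 36, of which 3 were higher (Cyp2c23, Cyp2d34 and Sult4a1, beside 9.64% of all tested genes) and 4 lower (Cyp2c65, Ugt2b34, Ugt8a and the Ugt1a locus, beside 7.21%). Leaving out 1 pair of libraries at a time, the block fit called 0 of 42 members without pair 1, 2 of 41 without pair 2 and 13 of 44 without pair 3, beside 1.69%, 1.14% and 8.71% of the genes tested. With the Ugt1a locus counted as 1 gene, the 13 of 44 without pair 3 became 5 of 36. DESeq2 with the block called 0 members, beside 3.67% of genes, and limma voom with the block called Cyp2c65 and Cyp2f2, beside 2.99% of genes.

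In none of the 44 tested members did the 3 Erbb2_OE_Corpus values lie wholly above or below the 3 Ctrl_Corpus values, whereas 8.75% of all tested genes had groups that did not overlap. The median log2 fold change of the 44 members was 0.04 without and -0.01 with the block, beside -0.01 in both fits for all tested genes. With the Ugt1a locus counted once the median over 36 members was 0.14 in both fits, with 21 above and 15 below 0.

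**Figure D2:**
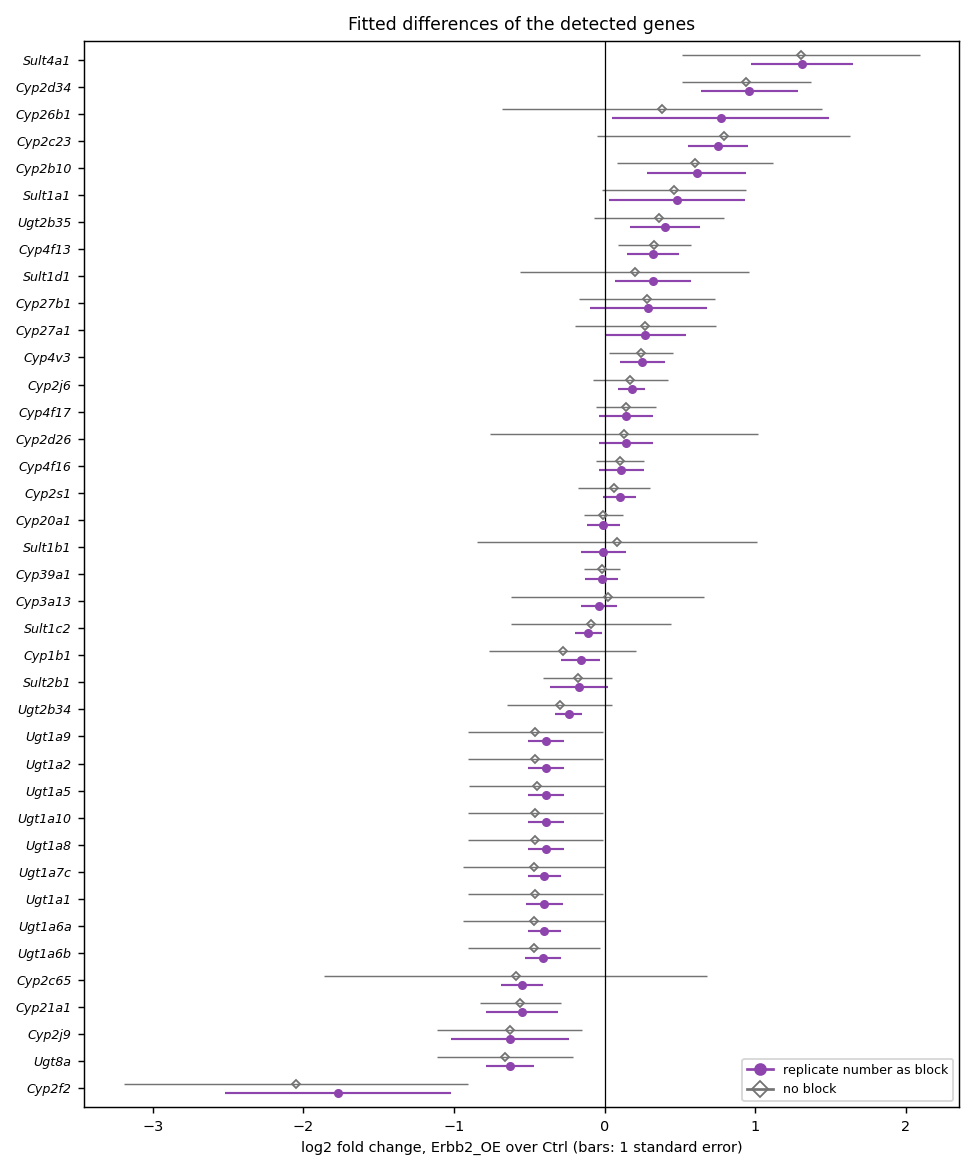
Log2 fold change of Erbb2_OE_Corpus over Ctrl_Corpus for the 39 detected members, with bars of 1 standard error, from the edgeR fits without and with the replicate block. The estimates lie on both sides of 0, from -2.05 for Cyp2f2 to 1.31 for Sult4a1, and the bar of each of the 39 is shorter with the block.

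Of the CYP1 family, which oxidizes polycyclic aromatic hydrocarbons and estrogens, Cyp1b1 was the detected member. Cyp1b1 stood at 101, 83.3 and 176 CPM in Erbb2_OE_Corpus libraries 1, 2 and 3, and at 109, 72.4 and 255 CPM in Ctrl_Corpus libraries 1, 2 and 3. The values of the 2 groups overlapped, and the replicate 3 library was the highest of its group in both. The log2 fold change was -0.28 ± 0.49 (SE) without and -0.16 ± 0.13 with the block, with adjusted p 0.9997 and 0.587 (edgeR). The other CYP1 genes, Cyp1a1 and Cyp1a2, had 0 reads in all 6 libraries, which allows no more than 0.17 CPM. Cyp1a1 and Cyp1b1 are textbook targets of AHR, and Ahr itself was measured at 66.3, 49.6 and 85.1 CPM in Erbb2_OE_Corpus libraries 1, 2 and 3, against 60.5, 32.5 and 62.7 CPM in Ctrl_Corpus libraries 1, 2 and 3. Ahr was higher in 3 of 3 pairs, although the groups overlapped and the change did not pass the test (log2 fold change 0.38 ± 0.10, adjusted p = 0.0666 with the block, edgeR). The adjusted p of Ahr with the block was 0.0363 without pair 1, 0.435 without pair 2 and 0.021 without pair 3. Ahrr, the AHR repressor and another textbook target, was too low to be tested and did not pass 0.707 CPM.

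The promoter windows of both CYP1 genes are shown because one is transcribed in these cells and the other gave no read. Each window holds the 250 bases before and the 50 bases after the transcription start, from RefSeq on GRCm38.p6, read along the gene's own strand, with the core of the AHR response element GCGTG, or its reverse complement CACGC, in capitals. The Cyp1b1 window lies at chr17:79715012-79715311 on the minus strand and the Cyp1a1 window at chr9:57697363-57697662 on the plus strand.
Cyp1b1: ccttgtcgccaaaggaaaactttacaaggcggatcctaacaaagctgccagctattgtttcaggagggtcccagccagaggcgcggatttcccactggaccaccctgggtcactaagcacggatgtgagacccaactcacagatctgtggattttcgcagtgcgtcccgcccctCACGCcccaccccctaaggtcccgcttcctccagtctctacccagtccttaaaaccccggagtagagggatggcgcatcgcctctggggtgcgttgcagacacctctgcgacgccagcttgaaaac
Cyp1a1: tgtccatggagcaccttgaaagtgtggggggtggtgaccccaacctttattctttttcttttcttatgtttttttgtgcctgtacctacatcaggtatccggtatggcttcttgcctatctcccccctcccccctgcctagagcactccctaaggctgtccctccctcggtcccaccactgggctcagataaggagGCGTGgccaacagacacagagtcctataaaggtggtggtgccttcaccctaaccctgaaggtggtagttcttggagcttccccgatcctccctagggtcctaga
Each window held 1 match, which started 76 bases upstream of the start in Cyp1b1 and 54 bases upstream in Cyp1a1. The letters GCGTG or CACGC occurred in 32.4% of 32851 windows of the same length, in 22 of the 113 members with a window (19.5%) and in 12 of the 32 detected members with a window (37.5%). A match describes these letters in this window only.

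The CYP2 family, the largest with 49 members, metabolizes drugs, odorants and arachidonic acid, and 9 of its genes were detected. Cyp2s1, a P450 found mostly outside the liver, stood at 123, 113 and 157 CPM in Erbb2_OE_Corpus libraries 1, 2 and 3 and at 88.3, 120 and 167 CPM in Ctrl_Corpus libraries 1, 2 and 3. Its groups overlapped and differed by a log2 fold change of 0.10 ± 0.11 with the block (adjusted p = 0.729, edgeR). Cyp2j6, of the CYP2J group that acts on fatty acids, stood between 42.8 and 85 CPM over the 6 libraries, and its log2 fold change was 0.18 (adjusted p = 0.336, edgeR with the block).

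Cyp2c65, of the CYP2C group that epoxidizes arachidonic acid, reached 11.2, 33.3 and 1.17 CPM in Erbb2_OE_Corpus libraries 1, 2 and 3, against 15.8, 51.0 and 1.55 CPM in Ctrl_Corpus libraries 1, 2 and 3. Within each pair the Erbb2_OE_Corpus library was the lower, with log2 ratios of -0.49, -0.62 and -0.41, and yet the levels ranged over 43.8-fold across replicate numbers. The log2 fold change was -0.59 ± 1.27 without and -0.55 ± 0.14 with the block (adjusted p 0.9997 and 0.0551, edgeR). Without pair 3 the adjusted p with the block became 0.0015, without pair 1 it was 0.19 and without pair 2 it was 0.597. Cyp2c23, another arachidonic acid epoxygenase, differed in the other direction, at 3.44, 4.58 and 20.6 CPM in Erbb2_OE_Corpus libraries 1, 2 and 3 and at 2.18, 3.49 and 10.9 CPM in Ctrl_Corpus libraries 1, 2 and 3. It was higher in 3 of 3 pairs and highest in the replicate 3 libraries, where Cyp2c65 was lowest. Its log2 fold change of 0.75 ± 0.20 with the block did not pass the threshold (adjusted p = 0.0641, edgeR). Cyp2c55, which was tested but did not meet the detection rule, had 20, 97 and 4 reads in Erbb2_OE_Corpus libraries 1, 2 and 3, against 7, 201 and 8 reads in Ctrl_Corpus libraries 1, 2 and 3.

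Cyp2f2, known from mouse lung club cells where it activates naphthalene, was chosen for description after its values were seen, for its spread. It stood at 25.5, 14.1 and 2.62 CPM in Erbb2_OE_Corpus libraries 1, 2 and 3 and at 44.6, 125 and 4.82 CPM in Ctrl_Corpus libraries 1, 2 and 3. Each Erbb2_OE_Corpus value was below that of its pair, but the pairs differed among themselves, with log2 ratios of -0.81, -3.15 and -0.88. The log2 fold change was -2.05 ± 1.14 without and -1.77 ± 0.75 with the block, and the adjusted p was 0.9997 and 0.438 (edgeR). Without pair 2 the log2 fold change was -0.82 and its adjusted p with the block became 0.0467, while it was 0.63 without pair 1 and 0.587 without pair 3. In the M21 annotation 13.5% of the exon bases of Cyp2f2 overlap other genes, the largest share among detected members outside the Ugt1a locus. Whether the counting used strand is not given in the labels or notes, so that overlapping genes cannot be told apart.

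The other detected CYP2 genes were low and did not differ past the threshold. Cyp2d26 ranged from 1.83 to 17.5 CPM with both replicate 3 libraries lowest, and Cyp2d34, also of the CYP2D drug-oxidizing group, ranged from 0.860 to 3.62 CPM. The log2 fold changes with the block were 0.14 for Cyp2d26 and 0.96 ± 0.32 for Cyp2d34, with adjusted p 0.762 and 0.139 (edgeR). Cyp2b10, the textbook target of CAR in mouse liver, stood between 0.927 and 3.34 CPM and was higher in 3 of 3 pairs (log2 fold change 0.61 ± 0.33, adjusted p = 0.388 with the block, edgeR). Cyp2j9 lay between 0.741 and 2.08 CPM and was lower in 3 of 3 pairs (log2 fold change -0.63 ± 0.39, adjusted p = 0.465 with the block, edgeR). The CAR gene Nr1i3 did not reach the level needed for testing. CYP2 paralogs are close in sequence, and how reads that match several genes were counted is not stated in the labels or notes, so that values of single CYP2C, CYP2D and CYP2J genes are uncertain.

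The CYP3 family, which oxidizes drugs and steroids, was represented by Cyp3a13. It stood at 32.9, 46.6 and 9.11 CPM in Erbb2_OE_Corpus libraries 1, 2 and 3, against 30.9, 43.8 and 12.4 CPM in Ctrl_Corpus libraries 1, 2 and 3. The values followed the replicate number and not the group, and the log2 fold change was -0.04 ± 0.12 with the block (adjusted p = 0.9, edgeR). Cyp3a11, the main CYP3A of mouse liver and a textbook target of PXR, had 0, 3 and 0 reads in Erbb2_OE_Corpus libraries 1, 2 and 3 and 0, 1 and 0 reads in Ctrl_Corpus libraries 1, 2 and 3. The PXR gene Nr1i2 was present at 14.6, 21.1 and 5.45 CPM in Erbb2_OE_Corpus libraries 1, 2 and 3 and at 11.6, 18.6 and 7.10 CPM in Ctrl_Corpus libraries 1, 2 and 3. As with Cyp3a13, replicate 3 was lowest in both groups, and Nr1i2 did not pass the test (adjusted p = 0.829 with the block, edgeR).

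The CYP4 enzymes, which hydroxylate the far end of fatty acids and eicosanoids, had 4 detected genes, whose highest library was 1.29 to 2.01 times their lowest. Cyp4f16 stood at 14.1, 13.6 and 13.3 CPM in Erbb2_OE_Corpus libraries 1, 2 and 3 and at 11, 14.2 and 13 CPM in Ctrl_Corpus libraries 1, 2 and 3. Cyp4v3, Cyp4f13 and Cyp4f17 each lay between 6.93 and 16 CPM in all libraries. Log2 fold changes of the 4 detected CYP4 genes with the block were 0.11 for Cyp4f16, 0.25 for Cyp4v3, 0.32 for Cyp4f13 and 0.14 for Cyp4f17, and the smallest of their adjusted p was 0.396 (edgeR). Of the tested CYP4 genes below the detection rule, Cyp4f40 ranged from 0.185 to 1.53 CPM, and Cyp4x1 reached 0.654 CPM and had no read in either replicate 3 library. The peroxisome proliferator targets Cyp4a10 and Cyp4a14 of mouse liver were among the silent members, and their receptor Ppara was too low to be tested.

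Of the CYP26 family, which breaks down retinoic acid, Cyp26b1 was the detected member, and its relatives Cyp26a1 and Cyp26c1 had no reads. Cyp26b1 stood at 7.5, 32.0 and 37.5 CPM in Erbb2_OE_Corpus libraries 1, 2 and 3, against 1.58, 9.29 and 47.7 CPM in Ctrl_Corpus libraries 1, 2 and 3. In pairs 1 and 2 the Erbb2_OE_Corpus library was the higher, with log2 ratios of 2.25 and 1.79, and in pair 3 it was the lower, with a log2 ratio of -0.35. Over all 6 libraries the log2 fold change was 0.38 ± 1.06 without and 0.77 ± 0.72 with the block (adjusted p 0.9997 and 0.713, edgeR). Without pair 3 the block fit gave a log2 fold change of 1.92 with adjusted p 2.59e-14, on 2 libraries per group. Without pair 1 the log2 fold change was 0.59 and without pair 2 it was 0.4, with adjusted p 0.905 and 0.948. The third pair thus differed in direction from the other 2, and the difference between pairs was not tested. Adh7, a retinol and ethanol dehydrogenase of the stomach lining that acts at the other end of this pathway, is given with the oxidoreductases.

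Enzymes of steroid, vitamin D, bile acid and cholesterol metabolism were mostly silent or low. Cyp39a1, an oxysterol hydroxylase of bile acid synthesis, was steady at 35.2, 40.7 and 41.8 CPM in Erbb2_OE_Corpus libraries 1, 2 and 3 and at 42.0, 40.5 and 36.6 CPM in Ctrl_Corpus libraries 1, 2 and 3 (log2 fold change -0.02 ± 0.11, adjusted p = 0.956 with the block, edgeR). Cyp21a1, known as a steroid hydroxylase of the adrenal cortex, stood at 14.7, 17.4 and 13.4 CPM in Erbb2_OE_Corpus libraries 1, 2 and 3, against 28.5, 13.8 and 24.5 CPM in Ctrl_Corpus libraries 1, 2 and 3. All 3 Erbb2_OE_Corpus libraries lay below Ctrl_Corpus libraries 1 and 3, while Ctrl_Corpus library 2 lay within their range. The log2 fold change of Cyp21a1 was -0.55 ± 0.24 with the block (adjusted p = 0.321, edgeR), and without pairs 1, 2 and 3 in turn it was -0.30, -0.90 and -0.37, with adjusted p 0.763, 0.0164 and 0.568. Cyp27a1, a sterol hydroxylase of mitochondria, and Cyp27b1, which makes active vitamin D, ranged from 1.18 to 4.2 and from 0.732 to 1.72 CPM, with log2 fold changes of 0.27 and 0.29 with the block. The vitamin D-degrading enzyme Cyp24a1 had at most 2 reads in a library. Cyp20a1, a P450 without a well-known substrate, lay between 24.2 and 30.0 CPM with a log2 fold change of -0.01 ± 0.11 (adjusted p = 0.975 with the block, edgeR).

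The UGT1 enzymes glucuronidate bilirubin, phenols and many drugs, and the 9 mouse Ugt1a genes are alternative first exons joined to the same downstream exons. In the M21 annotation every pair of the 9 shared at least 1311 exon bases, and Ugt1a6a and Ugt1a7c shared 2170. Ugt1a10, Ugt1a9, Ugt1a8 and Ugt1a2 had identical counts in all 6 libraries, with 487, 592 and 376 reads in Erbb2_OE_Corpus libraries 1, 2 and 3 and 573, 935 and 402 reads in Ctrl_Corpus libraries 1, 2 and 3. Ugt1a7c had 720, 898 and 529 reads in Erbb2_OE_Corpus libraries 1, 2 and 3 and 852, 1419 and 574 reads in Ctrl_Corpus libraries 1, 2 and 3. Ugt1a6a had 723, 885 and 517 reads in Erbb2_OE_Corpus libraries 1, 2 and 3 and 839, 1402 and 580 reads in Ctrl_Corpus libraries 1, 2 and 3. The reads of these 2 genes above the count of Ugt1a10 made up 28.9% to 34.1% of Ugt1a7c and 27.3% to 33.3% of Ugt1a6a, and no other Ugt1a gene exceeded Ugt1a10 by more than 15 reads in a library. The 9 detected Ugt1a genes thus carry little more than 1 measurement of the locus. Ugt1a10, Ugt1a9, Ugt1a8 and Ugt1a2 had no read that set 1 of them apart, and Ugt1a5, Ugt1a1 and Ugt1a6b had at most 15 more. The counts thus hold few or no reads from the first exons of these genes alone, and their detection rests on shared exons. The identical counts show that a read in the shared exons was counted for each of these genes. How reads that align to several places in the genome were counted is not stated. Which first exon was used, that of Ugt1a6a or of Ugt1a7c, cannot be read from these counts, since these 2 share more exon bases with each other than with the rest.

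**Figure D3:**
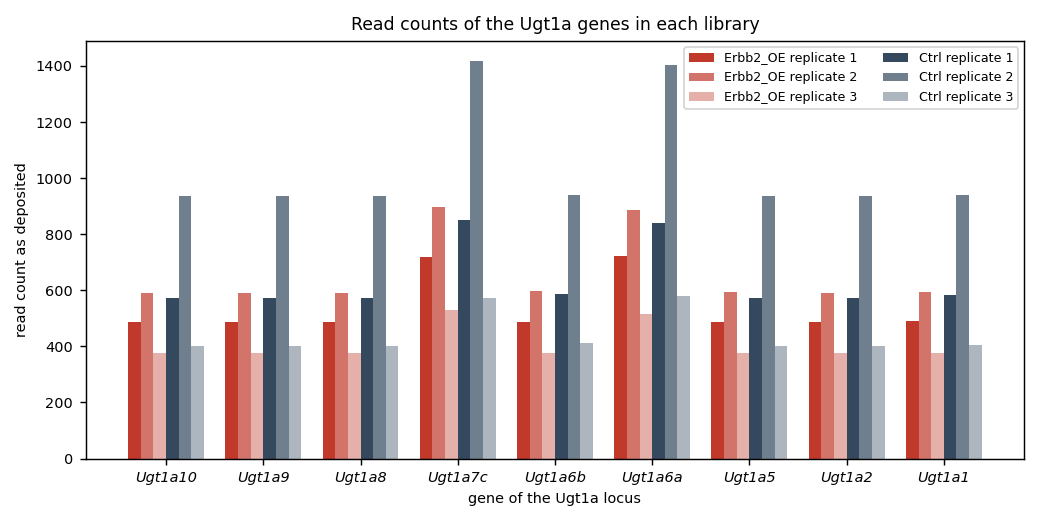
Deposited read counts of the 9 Ugt1a genes in each library, as bars from 0, with Erbb2_OE_Corpus libraries left of Ctrl_Corpus libraries. Ugt1a6a and Ugt1a7c stand above the other 7 genes by about the same amount, and the bars of those 7 are nearly the same height within a library, for example 592 reads in Erbb2_OE_Corpus library 2 and 935 reads in Ctrl_Corpus library 2 for Ugt1a10.

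In the locus as a whole, the Erbb2_OE_Corpus library was the lower of each pair. Ugt1a7c stood at 31.4, 50.8 and 22.0 CPM in Erbb2_OE_Corpus libraries 1, 2 and 3, against 39.5, 79.9 and 24.7 CPM in Ctrl_Corpus libraries 1, 2 and 3. The log2 fold change was -0.47 ± 0.47 without and -0.40 ± 0.11 with the block, with adjusted p 0.9997 and 0.0781 (edgeR). Ugt1a6a and Ugt1a10 gave -0.40 and -0.39 with the block, with adjusted p 0.0689 and 0.118, and the other 6 genes gave adjusted p between 0.0957 and 0.118. Reads of Ugt1a7c above those of Ugt1a10 averaged 11.3 ± 5.56 CPM in Erbb2_OE_Corpus and 15.9 ± 10.2 CPM in Ctrl_Corpus (SD, n = 3 each). Without pair 3, the block fit called all 9 Ugt1a genes lower, beside 8.71% of all genes tested in that fit called in either direction, for example Ugt1a7c with a log2 fold change of -0.49 and adjusted p 0.000428. Without pair 1 the log2 fold change of Ugt1a7c was -0.42 with adjusted p 0.189, and without pair 2 it was -0.24 with adjusted p 0.653.

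Of the UGT2 family, which conjugates steroids, bile acids and drugs, Ugt2b34 and Ugt2b35 were detected. Ugt2b34 stood at 248, 341 and 188 CPM in Erbb2_OE_Corpus libraries 1, 2 and 3 and at 273, 479 and 201 CPM in Ctrl_Corpus libraries 1, 2 and 3. The order of the replicates was the same in both groups, and the Erbb2_OE_Corpus library was the lower in 3 of 3 pairs (log2 fold change -0.24 ± 0.09, adjusted p = 0.182 with the block, edgeR). With the block, the log2 fold change of Ugt2b34 was -0.30 without pair 1, -0.11 without pair 2 and -0.31 without pair 3, with adjusted p 0.245, 0.845 and 0.0122. Ugt2b35 lay between 2.27 and 8.11 CPM, and its log2 fold change was 0.40 ± 0.23 (adjusted p = 0.408, edgeR with the block). Ugt8a, which adds galactose to ceramide and is known from myelin, stood at 7.76, 12.5 and 5.49 CPM in Erbb2_OE_Corpus libraries 1, 2 and 3, against 13, 20.7 and 7.05 CPM in Ctrl_Corpus libraries 1, 2 and 3. Again the Erbb2_OE_Corpus library was the lower in each pair, although the groups overlapped. The log2 fold change of Ugt8a was -0.66 ± 0.45 without and -0.63 ± 0.16 with the block (adjusted p 0.9997 and 0.0542, edgeR), and the adjusted p with the block became 0.00179 without pair 3, 0.26 without pair 1 and 0.391 without pair 2.

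With the Ugt1a locus counted once, 3 of 4 detected UGT loci were lower in 3 of 3 pairs, against 3 of 21 Cyp and 0 of 6 Sult genes. Among all tested genes 19.2% were lower and 19.6% higher in every pair. Genes higher in 3 of 3 pairs were 6 of the 21 detected Cyp genes (Cyp2b10, Cyp2c23, Cyp2d34, Cyp2j6, Cyp4v3 and Cyp27a1), 0 of the UGT loci and 1 of the 6 Sult genes (Sult4a1). The difference between the families was not tested.

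**Figure D4:**
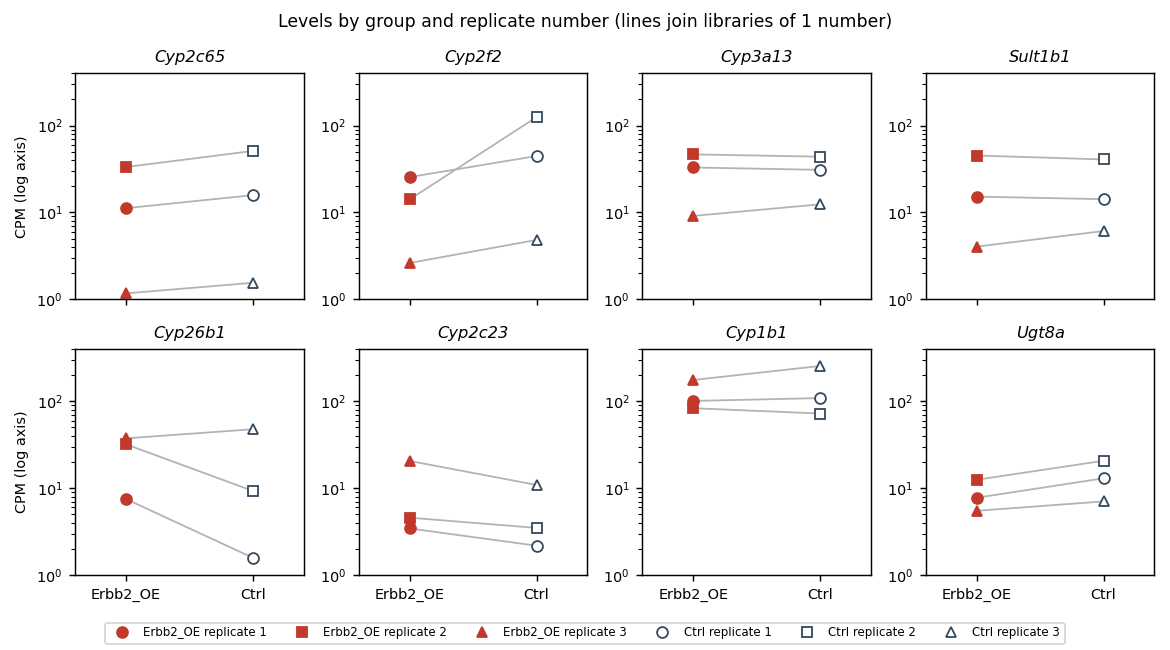
CPM of 8 members in each library, Erbb2_OE_Corpus left and Ctrl_Corpus right, with lines joining libraries of the same replicate number. For Cyp3a13 and Sult1b1 the lines of replicates 1 and 2 are nearly level and that of replicate 3 runs upwards to the right, for Cyp2c65 and Ugt8a all 3 lines do so, and for Cyp26b1 the line of replicate 3 runs against the other 2.

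The sulfotransferases were led by Sult1c2, which stood at 303, 455 and 129 CPM in Erbb2_OE_Corpus libraries 1, 2 and 3 and at 273, 504 and 164 CPM in Ctrl_Corpus libraries 1, 2 and 3. Libraries of the same number were closer to each other than to their own group, and the log2 fold change was -0.11 ± 0.09 with the block (adjusted p = 0.603, edgeR). Sult1b1, which sulfates thyroid hormones and phenols, showed the same pattern over a wider range, at 15.2, 45.2 and 4.04 CPM in Erbb2_OE_Corpus libraries 1, 2 and 3 and at 14.2, 40.7 and 6.11 CPM in Ctrl_Corpus libraries 1, 2 and 3. It was picked for description after its values were seen, and its log2 fold change was -0.01 ± 0.15 with the block (adjusted p = 0.983, edgeR). Sult1d1, which sulfates catecholamines in the mouse, ranged from 1.42 to 13.2 CPM, and the phenol sulfotransferase Sult1a1 from 0.387 to 1.35 CPM. Their log2 fold changes with the block were 0.32 and 0.48, and neither passed the threshold.

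Sult2b1, which sulfates cholesterol and other hydroxysteroids, stood at 7.67, 5.26 and 7.78 CPM in Erbb2_OE_Corpus libraries 1, 2 and 3 and at 6.90, 7.60 and 9.03 CPM in Ctrl_Corpus libraries 1, 2 and 3. These values overlapped, with a log2 fold change of -0.17 ± 0.19 (adjusted p = 0.713 with the block, edgeR). Sult4a1, a sulfotransferase known from brain, stood at 1.31, 1.53 and 5.28 CPM in Erbb2_OE_Corpus libraries 1, 2 and 3, against 0.649, 0.338 and 2.24 CPM in Ctrl_Corpus libraries 1, 2 and 3. It was low, higher in 3 of 3 pairs and highest in both replicate 3 libraries. Its log2 fold change was 1.30 ± 0.79 without and 1.31 ± 0.34 with the block, with adjusted p 0.9997 and 0.0617 (edgeR).

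Spread within groups was wider among the members than among all tested genes. The median SD of log2(CPM + 1) within groups was 0.599 over the 44 tested members, or 0.468 with the Ugt1a locus counted once, beside 0.213 over all tested genes. An SD above 1 was found for 9 of 44 members (20.5%), or 9 of 36 with the Ugt1a locus counted once (25.0%), beside 1.44% of all tested genes. The members were at lower levels than the rest, with a median of 16 CPM, or 10.4 CPM with the Ugt1a locus counted once, beside 27.6 CPM for all tested genes, and the part of level in this spread was not tested. Both replicate 3 libraries lay below the other 4 for 13 of 31 detected members with the Ugt1a locus counted once, among them Sult1c2, Sult1b1, Cyp3a13, Cyp2c65, Cyp2f2, Cyp2d26 and Ugt2b34. They lay above the other 4 for 9 members, among them Cyp1b1, Cyp2s1, Cyp26b1, Cyp2c23 and Sult4a1. Over all tested genes the replicate 3 libraries were lowest for 20.1% and highest for 18.7%.

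Supporting genes of the pathway were taken from 8 lists of 114 genes, of which 88 were tested. Without the block 0 of the 88 passed the threshold (edgeR), 6 had an unadjusted p under 0.05, and DESeq2 called 1. With the block 7 were higher and 4 lower, beside 2.37% and 0.723% of all tested genes. The median log2 fold change of the 88 with the block was 0.05. Of 7 tested genes of the AHR complex, 19 of the nuclear receptors, 9 electron donors and 8 genes of sulfate and PAPS supply, 0 passed the threshold in either fit. Hnf4a, a liver and gut transcription factor, was level at 282, 290 and 303 CPM in Erbb2_OE_Corpus libraries 1, 2 and 3 and 294, 296 and 264 CPM in Ctrl_Corpus libraries 1, 2 and 3. Of the genes of these lists with the smallest p, Arnt2, Hnf4g, Foxa1, Cyb5a, Cyb5r1, Papss2 and Suox gave log2 fold changes with the block of -0.42, -0.28, -0.15, -0.15, 0.18, 0.25 and 0.21, and their smallest adjusted p was 0.241 (edgeR).

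Changes past the threshold with the block were found among transporters and other oxidoreductases. Of 11 tested transporters 4 rose and 1 fell with the block, beside 2.37% of all tested genes higher and 0.723% lower, and 0 passed without it. In that fit the transporters had a median log2 fold change of 0.44, beside -0.01 for all tested genes. Abcc3, an exporter of glucuronides, stood at 258, 284 and 285 CPM in Erbb2_OE_Corpus libraries 1, 2 and 3, against 187, 222 and 198 CPM in Ctrl_Corpus libraries 1, 2 and 3. The groups did not overlap, and Abcc3 was 1.37-fold higher (log2 fold change 0.45 ± 0.08, adjusted p = 0.0083 with the block, edgeR). Abcc5, an exporter of cyclic nucleotides and organic anions, stood at 76.5, 70.0 and 160 CPM in Erbb2_OE_Corpus libraries 1, 2 and 3, against 55.4, 42.8 and 80.0 CPM in Ctrl_Corpus libraries 1, 2 and 3. It was 1.66-fold higher, with overlapping groups (log2 fold change 0.73 ± 0.10, adjusted p = 0.00331 with the block, edgeR). Abcc1 and Abcc4, further exporters of conjugates and anions, rose by 0.41 and 0.44 on the log2 scale with the block, with adjusted p 0.0321 and 0.0215. Slco3a1, an uptake carrier for organic anions, fell to 9.94, 7.75 and 7.99 CPM in Erbb2_OE_Corpus libraries 1, 2 and 3, against 26.6, 23.5 and 11.2 CPM in Ctrl_Corpus libraries 1, 2 and 3 (log2 fold change -1.19 ± 0.20, adjusted p = 0.00998 with the block, edgeR). Abcc2, the exporter of glucuronides on the bile side of hepatocytes, was too low to be tested.

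The list of other enzymes outside the P450s held 23 tested oxidoreductases, hydrolases and microsomal glutathione transferases. Of these 2 rose and 2 fell with the block, beside 2.37% of all tested genes higher and 0.723% lower. Akr1c13, an aldo-keto reductase, stood at 42.8, 58.5 and 38.2 CPM in Erbb2_OE_Corpus libraries 1, 2 and 3, against 21.8, 35.7 and 23.4 CPM in Ctrl_Corpus libraries 1, 2 and 3, and its groups did not overlap (log2 fold change 0.80 ± 0.10, adjusted p = 0.00203 with the block, edgeR). Adh7 stood at 149, 266 and 44.2 CPM in Erbb2_OE_Corpus libraries 1, 2 and 3, against 215, 453 and 94.3 CPM in Ctrl_Corpus libraries 1, 2 and 3. Its groups overlapped while each pair had the Erbb2_OE_Corpus library lower (log2 fold change -0.79 ± 0.10, adjusted p = 0.00208 with the block, edgeR). Akr1b8, another aldo-keto reductase, rose by 0.37 on the log2 scale and Maoa, which oxidizes monoamines, fell by 1.18, with adjusted p 0.0279 and 0.0192 with the block.

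Donor supply and other conjugation held 2 further changes with the block, in 1 of 6 and 1 of 5 tested genes. Beside these, 2.37% of all tested genes were higher and 0.723% lower. Ugdh, which makes UDP-glucuronate for the UGT enzymes, stood at 233, 288 and 320 CPM in Erbb2_OE_Corpus libraries 1, 2 and 3, against 188, 253 and 228 CPM in Ctrl_Corpus libraries 1, 2 and 3. It was higher in 3 of 3 pairs and just passed the threshold with the block (log2 fold change 0.33 ± 0.08, adjusted p = 0.0474, edgeR). It was the 1 gene of 6 tested in the UDP-glucuronate list that did so, and Slc35d1, a carrier of UDP-glucuronate into the endoplasmic reticulum, gave a log2 fold change of 0.18 (adjusted p = 0.296 with the block, edgeR). As3mt, which methylates arsenic, fell by 0.48 on the log2 scale with the block (adjusted p = 0.0256, edgeR), and Tpmt, which methylates thiopurine drugs, gave 0.56 with adjusted p 0.205. Of the 11 genes past the threshold, Abcc3, Abcc5, Akr1c13 and Adh7 also passed without each of the 3 pairs in turn. The other 7 did not pass without at least 1 pair: Abcc1, Abcc4 and Akr1b8 had adjusted p 0.147, 0.274 and 0.187 without pair 2, and Slco3a1, Maoa, As3mt and Ugdh had 0.0992, 0.104, 0.161 and 0.135 without pair 1 and 0.0628, 0.163, 0.273 and 0.135 without pair 2.

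**Figure D5:**
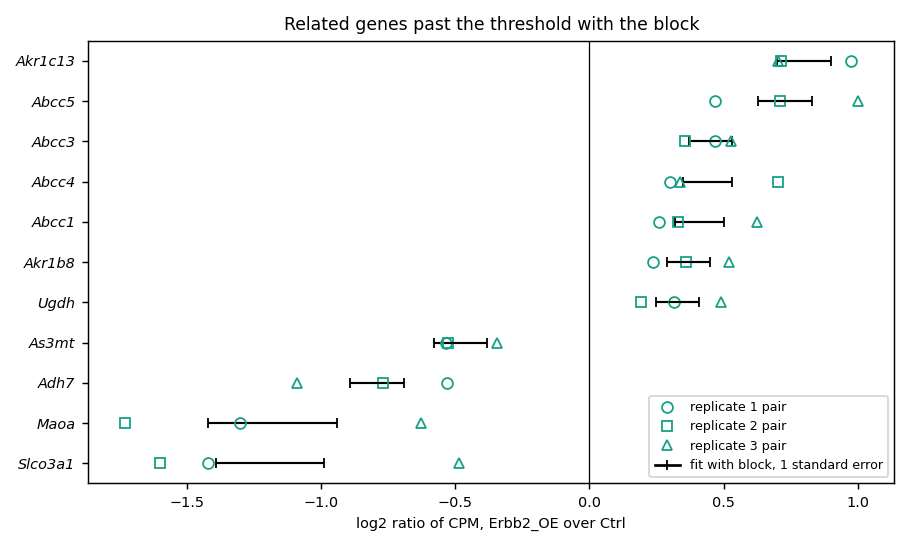
Log2 ratio of Erbb2_OE_Corpus over Ctrl_Corpus for the 11 supporting genes past the threshold with the replicate block, with 1 point per pair of libraries and the fitted log2 fold change with a bar of 1 standard error. All 3 pairs of each gene lie on the same side of 0, from -1.19 for Slco3a1 to 0.80 for Akr1c13 in the fit.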

How the data were processed

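Each deposited table holds whole-number read counts by Ensembl gene ID, in the column of matched counts that the file headers name. The submitters' processing notes name STAR, featureCounts and GRCm39, and the labels' protocols a column RNA extraction and standard Illumina libraries. Their versions, the annotation and the handling of strand are not given in those notes. Symbols matched 25424 of 25528 IDs in GENCODE M21 (GRCm38), which also gave exon lengths, so no coordinates of counted genes are printed; promoter windows are from RefSeq.

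Counts were tested with edgeR 4.0.16 in R 4.3.3: filterByExpr (minimum count 10), TMM, two-sided robust quasi-likelihood F test, Benjamini-Hochberg over 12593 genes at 0.05. Standard errors are |log2 fold change| over the root of the F statistic, and errors of means are SDs. The planned fit had the group alone. Beside it stands one blocked by replicate number, since deviations from group means of log2 CPM (prior count 2) correlated at 0.333, 0.66 and 0.707 between same-numbered libraries; the numbers come from the titles, and this check used the tested counts. DESeq2 1.42.0 and limma 3.58.1 voom were alternatives. The scripts were tested on simulated data. Named were the highest detected member of each enzyme group, the 10 detected members with the smallest p with the block, members past the threshold, Cyp1a1 and Cyp1b1, and of each supporting list the genes past the threshold and the 2 with the smallest p. Members and lists were chosen with earlier results of these data known, and counting the Ugt1a locus once (by Ugt1a10) was added after seeing the data. Intervals from zero counts cover counting error only.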

Additional observations from a re-analysis of the deposited data

How the results depend on the processing

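Over all tested genes 0 passed the threshold in the fit without a block and 34 with DESeq2. With the replicate block the count was 389, then 395 with relative log expression scaling, 345 without a filter on low counts, 388 with a filter of 1 CPM in 3 libraries, 405 with the earlier form of the fit, 462 with DESeq2 and 376 with limma voom. Leaving out 1 library at a time without the block gave 0 to 1, and leaving out 1 pair with the block gave 145 to 1089 (213 without pair 1, 145 without pair 2, 1089 without pair 3). The count of members past the threshold was 0 without the block, 0 with the replicate block and 0 in each alternative run except the following. It was 2 with limma voom and the block (Cyp2c65 and Cyp2f2). Leaving out 1 pair with the block gave 0 to 13, with 0 without pair 1, 2 without pair 2 (Cyp21a1 and Cyp2f2, beside 1.14% of genes) and 13 without pair 3 (the 9 Ugt1a genes, Ugt2b34, Ugt8a, Cyp2c65 and Cyp26b1, beside 8.71% of genes). These 13 became 5 with the Ugt1a locus counted once. Among supporting genes 0 passed without the block and 1 with DESeq2. With the block 11 passed, then 11 with relative log expression scaling, 10 without a filter on low counts, 11 with the 1 CPM filter, 11 with DESeq2, 10 with limma voom and 11 with the earlier form. Leaving out 1 pair with the block gave 4 to 15, with 8 without pair 1, 4 without pair 2 and 15 without pair 3. The cause of these differences was not tested. Detection held 39 members in the chosen setting, and 33 to 44 in the alternatives run.

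In edgeR the block changed the call of 0 members and of the 11 supporting genes given above, and with limma voom it changed the call of Cyp2c65 and Cyp2f2. Between libraries Cyp2c65, Cyp2f2 and Cyp26b1 spread over 30.3-fold or more, which limits what 3 libraries per group can show for them.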
